A study of Mus musculus with 18 samples.

Results

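The effect of losing the second Smchd1 allele on autosomal genes was measured in 8 of the 18 RNA-seq libraries of a study of mouse bone marrow B cells. These 8 libraries are the columns of 1 of the 2 deposited raw count tables, chosen because their column names carry no Bcell prefix. The table has 25965 gene rows, of which 13413 passed a filter on low counts, and the 12988 of those on chromosomes 1 to 19 are described here. Marrow was flushed from femurs of C57BL/6 mice aged 12 to 16 months, CD45.2+ B220+ Mac1- cells were sorted, and polyA RNA was sequenced with an Illumina TruSeq kit.

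All 8 animals were male and all carried 1 copy of Vav-Cre, a recombinase transgene that acts throughout the blood lineage. The 4 del/del libraries (B171, B196, B212 and B217) came from animals with both Smchd1 alleles deleted. The 4 heterozygous libraries (B173, B194, B213 and B214) came from animals with 1 deleted and 1 intact allele, and they were the only controls, so no library had 2 intact alleles. Each library has its own animal number, and no pairs are stated. The other 10 libraries, 5 of each genotype, came from female animals and were deposited in a second table.

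SMCHD1 is a chromatin protein of the structural maintenance of chromosomes family. It takes part in keeping genes silent on the inactive X chromosome, in some imprinted regions and in the clustered protocadherin genes, and it shapes long-range chromatin contacts. Imprinted genes are expressed mainly from the allele inherited from 1 parent, and most of the developmental regulators described below are normally silent or low in B cells.

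Total counts ran from 9788112 to 19958091 in the heterozygous libraries and from 19748770 to 22614546 in the del/del libraries, so the heterozygous side was shallower. B lineage identity genes, such as those of the B cell receptor complex and the factors that maintain it, averaged 9.34 to 9.56 log2 CPM in heterozygous and 9.32 to 9.43 in del/del libraries. CPM are read counts brought to one common library total, with each total adjusted by its trimmed mean of M values (TMM) factor. B194 stood apart from its group in genes above the rest: 92 autosomal genes were more than 2-fold above all 7 other libraries there, against 0 to 27 in the others. In the other direction, B173 had 35 and B214 33 genes more than 2-fold below all others, and B194 had 3. The median rank correlation to the other 7 libraries did not single out B194 (0.9896, against 0.9895 in B173 and 0.9894 in B212). Results are therefore given with all 8 libraries and without B194. In bulk RNA from sorted cells, fewer cells of a type and less RNA per cell cannot be told apart.

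With all 8 libraries, 16 of 12988 autosomal genes (0.123%) passed edgeR's quasi-likelihood test at an adjusted p under 0.05. Of these, 15 were higher in del/del (0.115%) and 1, Smchd1 itself, was lower (0.0077%). At an unadjusted edgeR p under 0.05 there were 437 genes (3.36%), 304 of them higher (2.34%) and 133 lower (1.02%), and the counts of gene lists below stand against these shares. The higher genes were Prox1, Isl1, Dmrt2, Nr3c2, Peg12, Mkrn3, Vstm2b, Tjp1, Pcdhac1, Xkr6, Cacna1h, Arhgef12, Trim40, Gm16028 and 5730507C01Rik. Their median log2 fold change was 2.43, whether 5730507C01Rik, which had no heterozygous read, was taken at its fitted value or at its lower bound. The median over all 12988 genes was 0.0019, and 50.8% of them were positive. In 8 of the 15 genes the heterozygous mean was under 1 CPM, so these were transcripts close to absent in the controls. In all 15, every del/del library was above every heterozygous library, which held for 1.45% of all autosomal genes tested. The reverse pattern held for 0.547%. No gene outside chromosomes 1 to 19 was called.

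**Figure D1:**
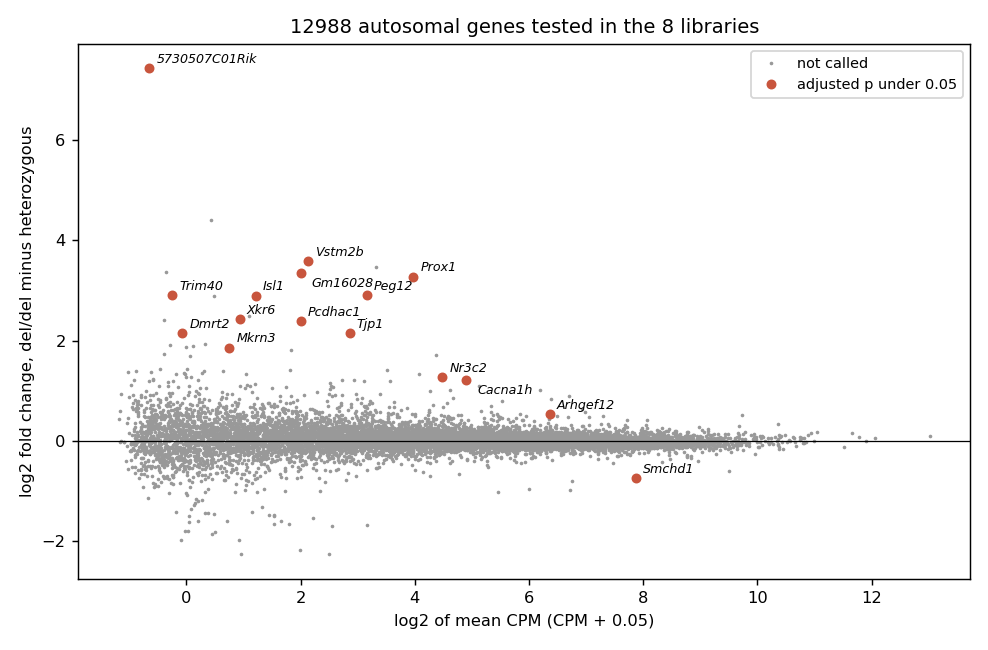
Each point is 1 of 12988 autosomal genes, with the log2 of its mean CPM over the 8 libraries (0.05 added) on the x axis and its log2 fold change, del/del minus heterozygous, on the y axis. Red points are the 16 genes with an edgeR adjusted p under 0.05. Of these, 15 lie above 0, most of them at low levels, and Smchd1 lies below.

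Prox1, Peg12, Vstm2b, Nr3c2 and Gm16028 kept an edgeR adjusted p under 0.05 in each of the 8 fits that left out 1 library. The other 11 calls lost it in at least 1 fit. There were 5 calls without B173, 5 without B212, 6 without B171, 9 without B214, 10 without B217, 12 without B213, 14 without B196 and 22 without B194. DESeq2 called 49 autosomal genes (0.378%), 45 higher (0.347%) and 4 lower (0.0309%), and all 16 were among them. The lower genes beside Smchd1 were Rgl1, Mmrn1 and Gpr56, named after their values were seen. Their DESeq2 log2 fold changes were -0.41, -0.63 and -0.44. None of these 3 passed the edgeR test.

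Smchd1 was measured at 292 CPM in B173, 274 in B194, 286 in B213 and 324 in B214, and at 162 in B171, 176 in B196, 168 in B212 and 197 in B217. All del/del libraries were below all heterozygous libraries. The mean was 294 ± 21.4 CPM (SD, n = 4) in heterozygous and 176 ± 15.3 (SD, n = 4) in del/del, a log2 fold change of -0.74 (SE 0.08, edgeR adjusted p = 0.00888). Reads were counted over the whole gene row (chromosome 17, 71344489 to 71475343), and the position of the deleted part is not used here. Reads from the rest of a deleted allele therefore count as Smchd1. The call was lost without B173, B171 or B212, with adjusted p up to 0.0540.

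Peg12 and Mkrn3, imprinted genes of the Snrpn region on chromosome 7, were higher in del/del. This region, which in humans is the Prader-Willi and Angelman syndrome region, holds genes expressed from the paternal allele (Peg12, Mkrn3 and Ndn) next to genes that are not expressed from it alone (Ube3a and Atp10a). Of the 9 genes listed for it, 5 could be tested, and 2 rose with all 8 libraries and 3 without B194. Peg12 (62461871 to 62464510), an intronless gene related to the Frat regulators of Wnt signalling, was at 1.75, 3.11, 1.51 and 1.80 CPM in heterozygous B173, B194, B213 and B214. In del/del B171, B196, B212 and B217 it was at 15.6, 16.7, 16.8 and 13.6 CPM. The groups were far apart, and B194 was the highest of the controls. The log2 fold change was 2.91 (SE 0.21, edgeR adjusted p = 0.000577) with 8 libraries and 3.22 (SE 0.16, edgeR adjusted p = 4.96e-05) without B194.

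Mkrn3 (62417593 to 62420139), which encodes a RING finger ubiquitin ligase, was at 0.720, 0.643, 0.754 and 0.703 CPM in the 4 heterozygous libraries. It was at 2.46, 2.84, 2.79 and 2.16 CPM in the 4 del/del libraries. The control values lay close together, and B194 was not above its group here. The log2 fold change was 1.86 (SE 0.22, edgeR adjusted p = 0.0110). It was lost without B173, B214, B171 or B212, with adjusted p up to 0.0627, and was 0.0608 with a block for animals of nearest number.

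Ndn (62348277 to 62349928), which encodes the growth suppressor necdin, depended on B194. It had 1, 5 and 4 reads in heterozygous B173, B213 and B214 but 230 in B194, and 53, 54, 66 and 44 in the del/del libraries. In CPM, B194 stood at 11.4, the other heterozygous libraries at 0.103 to 0.312 and the del/del libraries at 2.26 to 2.93. B194 was thus the highest of the 8 libraries, while the other 3 controls were below every del/del library. The log2 fold change was -0.35 (SE 1.01) with 8 libraries and not called, and 3.30 (SE 0.34, edgeR adjusted p = 0.00655) without B194.

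The other 2 tested genes of the region did not pass. Ube3a, a ubiquitin ligase, averaged 96.9 ± 6.18 CPM (SD, n = 4) in heterozygous and 96.7 ± 7.17 (SD, n = 4) in del/del libraries. Atp10a, a lipid-transporting ATPase, averaged 13.2 ± 1.45 and 11.3 ± 1.36 CPM (SD, n = 4 each). Ndn, Mkrn3 and Peg12 lie close together, with 67.7 kb between Ndn and Mkrn3 and 41.7 kb between Mkrn3 and Peg12. No other autosomal gene within 500 kb of any of them could be tested. Tjp1, another call on chromosome 7, is not on the list for this region. It starts 2832 kb beyond Peg12, and the genes between the 2 are not described here.

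The promoter windows of these 3 neighbours, which rose together once B194 was left out, and of Prox1, the transcription factor with the smallest p, are shown for their CpG content, a sequence feature that bears on DNA methylation. Each runs from 250 bases before to 50 bases after the transcription start, 5′ to 3′ on the gene's strand, from RefSeq on GRCm38.p6. Capitals mark CG dinucleotides.
Peg12 (chr7:62464461-62464760, minus strand): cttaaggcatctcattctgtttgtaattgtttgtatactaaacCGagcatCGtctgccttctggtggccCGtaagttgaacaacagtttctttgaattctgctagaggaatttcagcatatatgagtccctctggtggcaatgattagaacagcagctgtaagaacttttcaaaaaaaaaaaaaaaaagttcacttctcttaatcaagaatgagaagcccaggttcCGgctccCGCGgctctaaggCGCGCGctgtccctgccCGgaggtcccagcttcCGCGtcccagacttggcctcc
Mkrn3 (chr7:62420104-62420403, minus strand): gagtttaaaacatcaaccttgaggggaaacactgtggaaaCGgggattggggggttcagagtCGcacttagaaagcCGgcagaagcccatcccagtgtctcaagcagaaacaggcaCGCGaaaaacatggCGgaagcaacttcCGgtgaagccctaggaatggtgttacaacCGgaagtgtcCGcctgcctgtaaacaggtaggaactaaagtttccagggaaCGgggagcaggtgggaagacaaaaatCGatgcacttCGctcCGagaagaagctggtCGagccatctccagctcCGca
Ndn (chr7:62348027-62348326, plus strand): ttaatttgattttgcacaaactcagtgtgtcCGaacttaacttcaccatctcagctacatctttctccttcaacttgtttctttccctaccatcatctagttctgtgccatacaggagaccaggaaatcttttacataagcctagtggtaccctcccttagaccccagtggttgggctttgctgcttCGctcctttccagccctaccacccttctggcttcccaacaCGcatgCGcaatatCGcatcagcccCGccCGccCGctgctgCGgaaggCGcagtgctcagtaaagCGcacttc
Prox1 (chr1:190170778-190171077, minus strand): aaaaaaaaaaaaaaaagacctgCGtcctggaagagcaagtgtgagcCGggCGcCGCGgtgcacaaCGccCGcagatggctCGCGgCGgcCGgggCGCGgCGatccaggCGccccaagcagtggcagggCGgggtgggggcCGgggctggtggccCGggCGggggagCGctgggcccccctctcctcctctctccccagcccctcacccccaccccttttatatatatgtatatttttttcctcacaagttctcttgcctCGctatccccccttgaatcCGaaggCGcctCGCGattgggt

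The Peg12 window held 12 CG, that of Mkrn3 15, that of Ndn 11 and that of Prox1 25. CG reads the same on both strands. Among 25748 autosomal promoter windows of this length, 94.4% held at least 1 CG, with a median of 7 and quartiles of 3 and 21. These windows, the first listed for each gene, include those of genes with too few reads to be tested here. They are therefore not a matched background for the calls. Of the 15 genes called higher, 11 had a window in the table. Their median was 25 CG, from 3 in Trim40 to 44 in Arhgef12, and 10 of the 11 were above the median of all windows. The 7 windows of genes that edgeR called without B194 and not with 8 libraries held 11 to 53. These counts describe the sequence and say nothing of methylation, which was not measured here.

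Peg3, a paternally expressed zinc finger gene in another imprinted region of chromosome 7 (6703892 to 6730421), also depended on B194. It was at 0 CPM in B173, 4.85 in B194, 0.464 in B213 and 0.469 in B214, and at 18.3, 13, 26.2 and 16.3 CPM in del/del B171, B196, B212 and B217. The groups did not overlap even with B194, but B194 was far above its fellow controls. The log2 fold change was 3.46 (SE 0.70, edgeR adjusted p = 0.227) with 8 libraries and 5.70 (SE 0.45, edgeR adjusted p = 0.00114) without B194. Over the wider list of imprinted genes, 2 of 35 tested members rose with 8 libraries and 4 without B194, and none fell. The median log2 fold change of the list was -0.01 and 0.07, close to 0 in both.

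Of the developmental transcription factors, 3 were called. Prox1 (chromosome 1, 190118038 to 190170680), a homeobox factor that specifies lymphatic endothelium and liver, was at 2.16, 4.10, 2.38 and 2.81 CPM in heterozygous B173, B194, B213 and B214. In del/del B171, B196, B212 and B217 it was at 23.7, 38.0, 24.7 and 27.3 CPM. B196 was the highest del/del library and B194 the highest control, with no overlap. The log2 fold change was 3.27 (SE 0.23, edgeR adjusted p = 0.000577), and 3.52 (SE 0.22, edgeR adjusted p = 0.000205) without B194.

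Isl1, a LIM homeobox factor of motor neurons, heart and pancreatic islets, had 7, 12, 9 and 4 reads in the heterozygous and 60, 144, 94 and 52 in the del/del libraries. No library overlapped, and B196 was again the highest. This was a log2 fold change of 2.90 (SE 0.37, edgeR adjusted p = 0.0179). The call was lost without B173, B213, B214, B171 or B212, with adjusted p up to 0.0865. Dmrt2, a DM domain factor of the developing muscle and skeleton, had 2, 8, 5 and 5 reads against 33, 42, 30 and 23. This gave a log2 fold change of 2.14 (SE 0.30, edgeR adjusted p = 0.0271). This call did not survive leaving out any 1 of the 8 libraries, with adjusted p up to 0.175 and 0.0594 without B194, and its adjusted p was 0.119 with the block.

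Prox1, Isl1 and Dmrt2 were the calls among 12 tested members of a list of 86 developmental transcription factors, whose median log2 fold change was 0.13, and 0.38 without B194. Only 12 of the 86 had enough reads to test, and those high in del/del alone could pass the filter through that group. None of 7 tested Hox genes was called by edgeR or DESeq2, 1 had an unadjusted p under 0.05, and all 7 were positive (median 0.27). The Hox gene with the smallest p, Hoxa7, was at 5.29 to 6.80 CPM in heterozygous and 5.95 to 9.85 in del/del, with overlap. Nr3c2 (chromosome 8), the mineralocorticoid receptor, was at 11.8, 13.8, 12.1 and 14.2 CPM in the controls and 27.7, 27.7, 33.3 and 36.8 in del/del. It had 115 to 280 reads in each control library, and the groups did not overlap. The log2 fold change was 1.27 (SE 0.12, edgeR adjusted p = 0.00281).

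Among the calls, 5 encode proteins of the cell surface or of cell junctions. Pcdhac1, a clustered protocadherin of chromosome 18 that mediates recognition between neurons, was at 1.75, 1.63, 1.22 and 0.469 CPM in heterozygous B173, B194, B213 and B214. In the del/del libraries B171, B196, B212 and B217 it was at 7.90, 6.49, 6.74 and 5.54 CPM. The groups did not overlap, and B214 was the lowest control. The difference of 2.39 on the log2 scale (SE 0.31, edgeR adjusted p = 0.0179) was lost without B173, B213, B171, B196, B212 or B217 with adjusted p up to 0.104. Its row spans the alpha cluster, whose members share exons. Of 6 clustered protocadherins tested, edgeR called 1, DESeq2 called 2 and 3 were positive. At an unadjusted edgeR p under 0.05, 2 were higher and 2 lower. Pcdhb5 of the neighbouring beta cluster had 4, 4, 3 and 2 reads against 43, 24, 24 and 13, a log2 fold change of 2.41 that edgeR did not call (adjusted p = 0.183) and DESeq2 did (adjusted p = 0.0335).

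Tjp1, which encodes the tight junction scaffold ZO-1, was at 1.95, 4.20, 1.39 and 2.89 CPM in heterozygous and 9.48, 12.8, 13.7 and 11.3 in del/del libraries. On the log2 scale it was higher by 2.15 (SE 0.29, edgeR adjusted p = 0.0226), and by 2.52 without B194, the control with the highest value. It failed without B173, B214, B171, B196, B212 or B217, with adjusted p up to 0.109, and was at 0.0608 with the block. Vstm2b, an immunoglobulin domain membrane protein of chromosome 7, was at 0.823, 0.643, 0.812 and 0.391 CPM against 5.86, 8.09, 10.6 and 7.49. It had the largest fold change among the calls with reads in the controls, 3.58 on the log2 scale (SE 0.27, edgeR adjusted p = 0.000577), and B194 lay within its group.

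Cacna1h, a T-type calcium channel subunit, was at 17.2, 15.6, 26.1 and 13 CPM in heterozygous and 41.1, 43.9, 38.5 and 43.9 in del/del libraries. B213 was the highest control. Its log2 fold change of 1.22 (SE 0.18, edgeR adjusted p = 0.0445) passed in only 1 of 8 leave-one-out fits, the one without B213. Its adjusted p reached 0.198 in the others, was 0.0956 without B194, and was 0.120 with the block. Xkr6, of the XK-related membrane protein family, had 6, 16, 6 and 7 reads against 52, 74, 85 and 60. Its log2 fold change was 2.43 (SE 0.28, edgeR adjusted p = 0.0110), lost without B173, B214 or B212 with adjusted p up to 0.0601, and 0.0608 with the block. Both genes overlap a gene on the other strand in the annotation (Tpsg1 and Gm15918), and without a stated strand setting their reads cannot be told apart.

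The remaining calls were of mixed kinds. Arhgef12, a guanine nucleotide exchange factor, changed least of the 15, at 65.4, 70.0, 63.4 and 69.6 CPM in heterozygous and 96.6, 90.4, 96.1 and 106 in del/del. The change was 0.53 on the log2 scale (SE 0.07, edgeR adjusted p = 0.0179), and it passed only without B194 or B196, with adjusted p up to 0.109 in the other fits. Trim40, a tripartite motif protein, had 1, 3, 5 and 2 reads against 31, 21, 42 and 27, a log2 fold change of 2.90 (SE 0.38, edgeR adjusted p = 0.0179). It passed only without B213 or B196, with 0.0601 without B194, up to 0.0988 in all, and 0.0583 with the block.

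The unnamed transcript 5730507C01Rik of chromosome 12 had 0 reads in all 4 heterozygous libraries and 24, 20, 25 and 31 in the del/del libraries. A floor of 3 reads over the heterozygous group corresponds to 0.050 CPM, so it was at least 23.2-fold higher in del/del (edgeR adjusted p = 0.0179). This call failed without B173, B171, B212 or B217, with adjusted p up to 0.104, and was at 0.229 with the block. Gm16028 (chromosome 1, 85246851 to 85255465) was at 1.03, 0.494, 0.696 and 0.703 CPM against 8.50, 7.33, 9.35 and 3.70. B217 was the lowest del/del library but still above every control. Its log2 fold change was 3.35 (SE 0.34, edgeR adjusted p = 0.00539). It lies inside C130026I21Rik on the other strand, which had 25 to 36.5 CPM in heterozygous and 33.7 to 49.1 in del/del and was not called. Prox1, Nr3c2 and Pcdhac1 also overlap another row (Gm17566, Gm10649 and Gm10545).

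**Figure D2:**
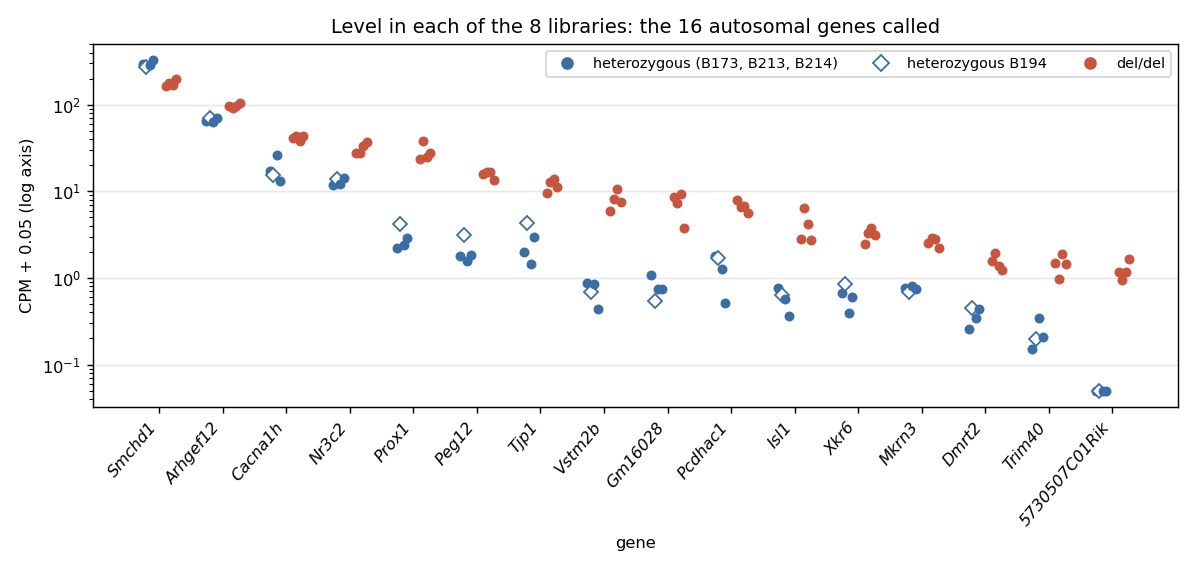
CPM (0.05 added, log axis) of the 16 called autosomal genes in each of the 8 libraries, ordered by del/del mean after Smchd1. Blue symbols are heterozygous libraries, with B194 as an open diamond, and red circles are del/del libraries. Smchd1 is lower in del/del and the other 15 genes are higher, with no overlap between genotypes in any of them.

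Leaving out B194 changed which genes were called. Of 13089 autosomal genes tested with 7 libraries, 22 were called (0.168%), 21 higher (0.16%) and 1 lower (0.00764%). Of the 16 calls, 13 were kept (81.2%). Without B194 the log2 fold change was -0.78 for Smchd1, 1.81 for Mkrn3, 2.97 for Isl1, 1.30 for Nr3c2 and 2.57 for Pcdhac1. It was 3.55 for Vstm2b, 2.67 for Xkr6, 0.55 for Arhgef12 and 3.18 for Gm16028. Cacna1h, Trim40 and Dmrt2 were lost, with log2 fold changes of 1.15, 2.78 and 2.27. There were 9 genes gained, all higher: Peg3, Ndn, Robo1, Cdh4, Jag1, Fzd10, Gnai1, Hspg2 and Mllt4. Without B194, 2.69% of tested genes had every del/del library above every heterozygous one and 1.29% below.

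Of the gained genes other than Peg3 and Ndn, 4 had B194 far above the other controls. Robo1, the receptor for Slit guidance cues, had 5, 79, 8 and 6 reads in heterozygous B173, B194, B213 and B214, and 82, 45, 76 and 69 in del/del. Its log2 fold change was 1.14 (SE 0.63) with 8 libraries and 2.71 (SE 0.33, edgeR adjusted p = 0.0146) without B194. Cdh4, a cadherin of the retina and brain, had 0, 20, 1 and 0 reads against 43, 83, 29 and 53. B194 held nearly all the control reads of Cdh4, and for Robo1 its 3.91 CPM were above all 4 del/del libraries, which had 2 to 3.81 CPM.

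Over the 3 remaining controls Cdh4 had 1 read, and its ratio of del/del to heterozygous CPM was 96.1 (95% counting interval 17.1 to 3813, edgeR adjusted p = 0.0162). Fzd10, a Wnt receptor, had 2, 29, 1 and 0 reads in heterozygous and 39, 38, 35 and 24 in del/del libraries. Without B194 its ratio was 20.9 (95% counting interval 7.02 to 103, edgeR adjusted p = 0.0213). Both exact intervals cover counting error only, and they are wide because so few control reads remained. Gnai1, an inhibitory G protein subunit, had 1, 23, 1 and 2 reads against 34, 49, 30 and 20. That is a log2 fold change of 1.87 (SE 0.66) with 8 libraries and 3.83 (SE 0.51, edgeR adjusted p = 0.0222) without B194.

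The last 3 gained genes, like Cdh4 and Peg3, had no overlap between genotypes even with B194. Jag1, a Notch ligand, had 5, 23, 4 and 7 reads against 46, 98, 91 and 74, with a log2 fold change of 2.50 (edgeR adjusted p = 0.0906) with 8 libraries and 3.10 (edgeR adjusted p = 0.0195) without B194. Hspg2, which encodes the matrix proteoglycan perlecan, was at 3.70, 7.51, 5.86 and 3.44 CPM against 13.2, 12.2, 10.1 and 12.2. It moved from 1.19 (edgeR adjusted p = 0.197) to 1.44 (edgeR adjusted p = 0.0317) on the log2 scale. Mllt4, the junction protein afadin, moved from 0.76 (edgeR adjusted p = 0.0820) to 0.84 (edgeR adjusted p = 0.0474). In all 9 genes B194 was the highest control library.

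**Figure D3:**
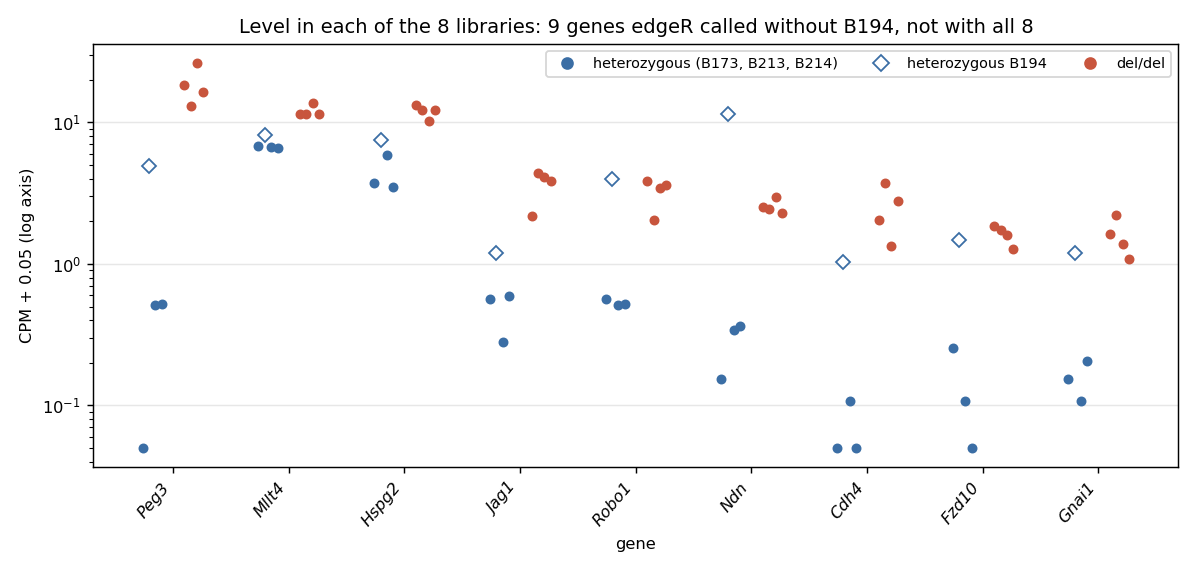
CPM (0.05 added, log axis) in each of the 8 libraries for the 9 genes that edgeR called with B194 left out and not with all 8 libraries. B194 (open diamond) is the highest heterozygous library in each, and for Ndn and Robo1 it is above all del/del libraries.

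B194 also held transcripts of tissues other than blood. A list of 38 developing brain genes, written after the data were seen, summed to 291 CPM in B194, with reads for all 38. Del/del B196 and B212 came next, at 75.3 and 56.2 CPM with 33 genes detected in each. The other 5 libraries were at 32.0 to 41.8 CPM. They had 22 genes detected in B213, 26 in B217 and 11 to 13 in B173, B214 and B171. The 10 libraries of the second table were at 33.6 to 71.6 CPM with 8 to 12 genes detected. Fabp7, a fatty acid binding protein of radial glia, had 207 reads in B194, 20 and 22 in B196 and B212, and at most 6 in the other 5 libraries of the 8.

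Embryonic globin transcripts followed the same libraries. Hbb-y, an embryonic beta globin, had 408 reads in B194, 58 in B196, 66 in B212 and 0 to 8 in the other 5 libraries. Together the 3 embryonic globin genes had 446, 60 and 69 reads in B194, B196 and B212. The second table had 0 to 3. Over 34 brain genes, B196 stood at a median of 9.07% of the B194 level (quartiles 6.64 to 11.8%) and B212 at 9.29% (6.50 to 11.1%). The median was 2.31% in B217, 1.87% in B213 and 0% in B173, B214 and B171. Adult globin was also highest in B194: Hba-a1 was at 302 CPM there, 28.1 to 162 in the other controls and 46.4 to 95.1 in del/del. The erythroid list averaged 4.13 log2 CPM in B194 and 2.48 to 3.53 in the other 7 libraries.

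**Figure D4:**
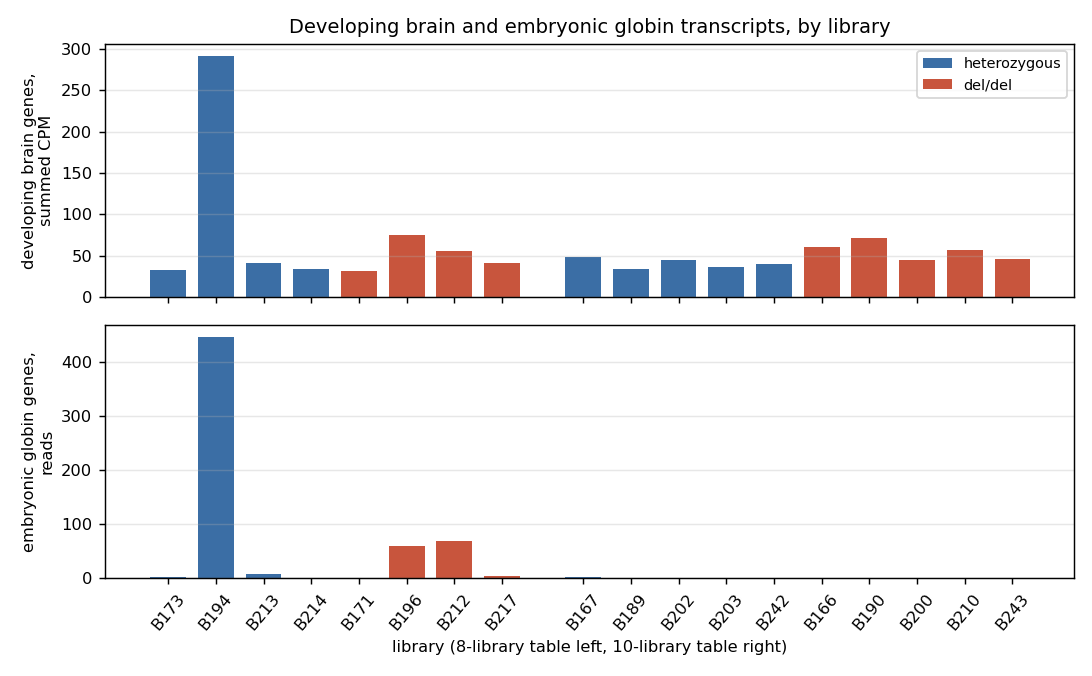
Summed CPM of 38 developing brain genes (top) and summed reads of 3 embryonic globin genes (bottom) in each library, the 8 libraries on the left and the 10 of the second table on the right. Blue bars are heterozygous and red bars del/del. B194 reaches 291 CPM and 446 reads, and B196 and B212 are the next highest in reads.

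B171, a del/del library with 32.0 CPM of brain genes and 0 embryonic globin reads, had 23.7 CPM of Prox1, 15.6 of Peg12, 18.3 of Peg3 and 7.90 of Pcdhac1. Peg3 was not among the 15 calls. What part the brain and embryonic globin transcripts have in the calls was not tested. Without B194, B196 and B212 together, a choice made after the data were seen, 5 autosomal genes were called from 3 against 2 libraries: Prox1, Peg12, Vstm2b, Peg3 and Robo1. These hold 3 of the 16 calls made with 8 libraries, and the other 13 were lost. The Prox1 log2 fold change was then 3.37 (SE 0.17, edgeR adjusted p = 0.00147) and that of Peg12 3.12 (SE 0.19, edgeR adjusted p = 0.00273). All 15 higher calls stayed positive in each of the 315 log2 fold changes computed under other settings, from 0.49 upwards. These genes had been picked as higher from the same counts, so their kept sign is no separate support.

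Within 500 kb of the 15 higher calls, 113 other autosomal genes were tested. The edgeR test called none, DESeq2 called 3 (Gm16025, Ptpn14 and Pcdhb5), 69 (61.1%) were positive and their median log2 fold change was 0.03. The gene-rich stretch around Cacna1h alone held 43 of these genes, 34 of them positive. Over all autosomal genes tested 50.8% were positive, with a median of 0.0019. Peg12 and Mkrn3 are the pair of calls within 500 kb of each other. Ptpn14, a phosphatase gene within 500 kb of Prox1, was at 5.24 to 8.36 CPM in heterozygous and 11.5 to 21.2 in del/del, a log2 fold change of 1.20 (SE 0.20, edgeR adjusted p = 0.0985, DESeq2 adjusted p = 3.63e-05). Gm16025, an unnamed transcript near Gm16028 that is singled out here after its values were seen, had 1, 0, 1 and 5 reads in heterozygous B173, B194, B213 and B214 and 31, 31, 24 and 27 in the del/del libraries. The groups did not overlap. The difference of 3.38 on the log2 scale (SE 0.60) was not called by edgeR with 8 libraries (adjusted p = 0.128), but was called without B214 and by DESeq2 (adjusted p = 0.00138). Of 1032 autosomal genes tested on chromosome 7, 4 were called higher, against 15 of 12988 over all autosomes (0.115%). This was the largest number for any chromosome. It includes the neighbours Peg12 and Mkrn3, and 4 genes are too few to show a concentration on the chromosome.

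Beside Mllt4, Jag1 and Ptpn14, the genes closest to the threshold with 8 libraries were Ryr2 and Cdc42bpb. Ryr2, an intracellular calcium channel, was at 3.86 to 4.52 CPM in heterozygous and 7.11 to 9.70 in del/del (log2 fold change 0.92, edgeR adjusted p = 0.0898). Cdc42bpb, a kinase that acts downstream of Cdc42, was at 13.3 to 18 and 25.6 to 43.3 CPM (log2 fold change 1.01, edgeR adjusted p = 0.0985). Neither overlapped between genotypes.

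No gene of the B cell maturation lists was called by edgeR or DESeq2. Of 21 pro-B and pre-B cell genes, 11 had an unadjusted p under 0.05 (10 lower), 4 were positive and the median log2 fold change was -0.29, and -0.28 without B194. Rag1, which starts receptor gene rearrangement, was at 980, 957, 785 and 758 CPM in heterozygous and 642, 786, 423 and 439 in del/del, where B212 and B217 were low and B196 overlapped the controls. Dntt, which adds bases at the rearranged joints, was at 310 to 403 and 201 to 348 CPM. Mature B cell genes had a median of 0.07 with 21 of 25 positive, and the B lineage identity list -0.05 with 2 of 17 positive, with 0 members of either list at an unadjusted p under 0.05. Without B194, 14 of the 25 mature genes were positive.

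Genes of plasmacytoid dendritic cells, which also carry B220, differed between libraries of the same genotype. The list averaged 5.69 to 5.76 log2 CPM in the heterozygous libraries, and 6.25 in B171, 6.05 in B196, 6.25 in B212 and 5.63 in B217. B217 was below all controls and the other 3 del/del libraries were above them. Siglech, a defining surface marker of these cells, was at 72.7 to 106 CPM in heterozygous and 152, 119, 146 and 61.3 in del/del. Of the 23 genes edgeR called none and DESeq2 called Il3ra and Pacsin1. With 8 libraries 20 were positive, 10 had an unadjusted p under 0.05 (9 higher), and the median was 0.32. Il3ra, the interleukin 3 receptor alpha chain, came closest at 9.06 to 12.5 CPM against 15 to 18.4 (log2 fold change 0.61, edgeR adjusted p = 0.216). Pacsin1, a membrane trafficking protein, was at 19.6 to 24.7 against 30.2 to 39.0 CPM (log2 fold change 0.53, edgeR adjusted p = 0.227).

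B217, with the lowest level of these genes, had 27.3 CPM of Prox1 and 13.6 of Peg12, within or just below the range of the other del/del libraries. Gm16028 was lower there, at 3.70 CPM against 7.33 to 9.35. With the list's mean level as a covariate 5 genes were called, Prox1, Peg12, Vstm2b, Nr3c2 and Gm16028. The Prox1 log2 fold change was then 3.37 and that of Gm16028 2.58. The other 11 calls were lost, with edgeR adjusted p from 0.114 for 5730507C01Rik to 0.347 for Dmrt2. Their direction was kept, for example 2.70 for Isl1, 2.42 for Xkr6, 2.13 for Tjp1, 1.70 for Mkrn3 and 0.60 for Arhgef12 on the log2 scale. What part plasmacytoid dendritic cells have in any of the calls was not tested.

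Neutrophil and monocyte genes were positive in 28 of 28 members (median 0.28) with none called and 0 at an unadjusted p under 0.05, and their level ran from 4.67 to 5.49 log2 CPM in heterozygous and from 4.67 to 6.32 in del/del. B212 was the highest library. Csf1r, the receptor for macrophage colony stimulating factor, was at 18.9 to 21.9 CPM in controls, 35.5 in B212 and 20.5 to 23.6 in the other del/del libraries. T and NK cell genes had a median of -0.20 with 6 of 27 positive and 4 lower at an unadjusted p under 0.05. Ncr1, an activating receptor of NK cells, was at 11.6, 5.04, 11.5 and 10.3 CPM against 7.16, 5.78, 6.16 and 4.41, so that B194 was the control that overlapped. Erythroid genes had a median of -0.41, and -0.13 without B194, with 1 of 22 at an unadjusted p under 0.05. DESeq2 called no member of these 3 lists. Klf1, the master factor of red cells, was at 15 CPM in B194 and 1.08 to 2.73 in the other 7 libraries.

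Proliferation and growth lists held no calls by edgeR or DESeq2. All 35 mitosis genes were negative with 8 libraries (median -0.13), and 4 were positive without B194 (median -0.06). DNA replication genes had a median of -0.10 with 2 of 35 positive, and 0 genes of either list had an unadjusted p under 0.05. Kif11, a spindle motor, was at 180 to 226 CPM in heterozygous and 138 to 228 in del/del, where B171 was the highest of all 8 libraries. Cytosolic ribosomal protein genes were positive in 69 of 73 members with a median of 0.16 and 7 at an unadjusted p under 0.05, at 5.90 to 6.16 log2 CPM against 6.14 to 6.35. Rpl19 was at 41.2 to 52.4 against 51.3 to 64.3 CPM.

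Among the machinery of chromatin, 0 of 21 cohesin, condensin and CTCF genes and 0 of 37 genes of DNA and histone methylation silencing were called by edgeR, with medians of -0.10 and -0.04 and 0 and 2 genes at an unadjusted p under 0.05. DESeq2 called 1 of them, Bmi1. Bmi1, a Polycomb subunit, was at 71.2 to 82.5 CPM in heterozygous and 93.6 to 104 in del/del, a log2 fold change of 0.32 without overlap (edgeR adjusted p = 0.264). Cdkn2a, which encodes the cell cycle inhibitors p16 and p19, had 7, 15, 10 and 15 reads against 18, 38, 26 and 16 and was not called. Immediate early and heat shock genes had a median of 0.23, with 3 of 19 at an unadjusted p under 0.05. In that list Dusp1, a phosphatase induced within minutes of stimulation or handling, was at 14.8 to 27.3 CPM against 48.3, 21.4, 81.9 and 38.4, with B212 the highest.

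**Figure D5:**
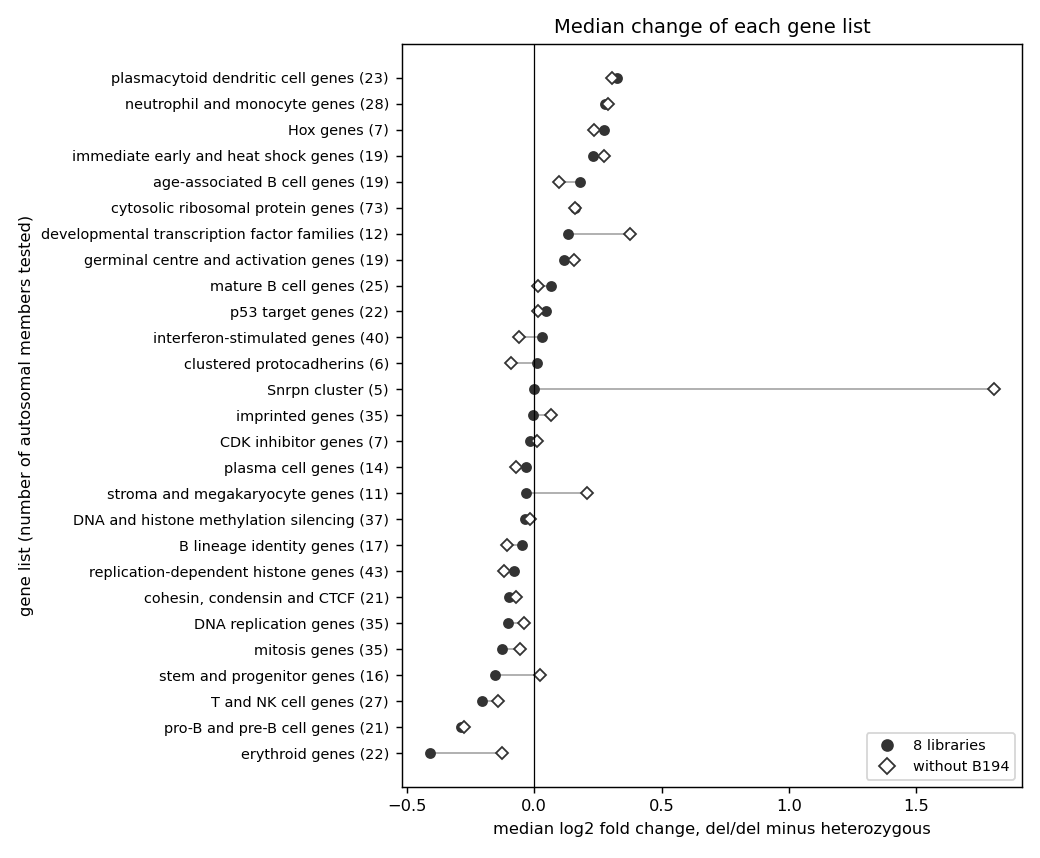
Median log2 fold change, del/del minus heterozygous, of the tested autosomal members of each gene list, with the number tested in parentheses. Filled circles are the 8 libraries and open diamonds are without B194. Among the lists drawn, the Snrpn cluster moves most when B194 is left out, to a median of 1.81. Only 5 of its genes were tested, and its median moves because Ndn alone changes sign, from -0.35 to 3.30. Mkrn3 went from 1.86 to 1.81.

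The difference in genotype effect between the 2 tables was tested with an interaction term over all 18 libraries, which differ by sex and by table at once. No autosomal gene of 13566 was called by edgeR (0%), with 175 at an unadjusted p under 0.05. Limma voom called 0 (132 at an unadjusted p under 0.05) and DESeq2 called 2 (186). Without B194 edgeR also called 0 (157). The DESeq2 genes, named after their values were seen, were Id4 and AC214054.1. Id4, an inhibitor of basic helix-loop-helix factors, had 0 reads in every heterozygous library of both tables except B194, which had 92. It had 14, 26, 21 and 8 reads in the 4 del/del libraries here and 18 to 63 in the 5 of the second table. AC214054.1 had 4, 26, 14 and 9 reads in the heterozygous and 55, 34, 73 and 31 in the del/del libraries here. In the second table it had 5 to 39 reads in heterozygous and 0 to 8 in del/del libraries, the opposite direction.

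The second table had 33 autosomal calls (0.253%), 32 higher (0.245%). Of the 15 genes called higher here, 7 were called there (46.7%), which is 21.9% of its 32. Without B194, 13 of 21 (61.9%) were shared, or 40.6% of the 32. The tables share no library. Vstm2b, Xkr6, 5730507C01Rik and Trim40 had too few reads to be tested in the second table, and the other 11 were all positive there, from 0.56 to 4.04. The smallest unadjusted interaction p among the 16 calls was 0.000812, for Pcdhac1, whose log2 fold change was 2.39 here and 4.04 there. Tjp1 was next, at 2.15 here and 3.73 there, with an unadjusted edgeR interaction p of 0.00473. Without B194 the smallest unadjusted edgeR interaction p were 0.000547 for Peg12, 0.00402 for Pcdhac1 and 0.0254 for Tjp1. None passed after adjustment over all genes.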

How the data were processed

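RNA-seq libraries from sorted marrow B cells of 8 male mice, 4 del/del and 4 heterozygous for Smchd1, were analysed from a deposited table of raw read counts per gene made by the authors. The submitters' processing notes name mm10 and GRCm38 as builds, and as tools TopHat, Trim Galore, FastQC, bcl2fastq and edgeR 3.32.1. Not given in the sources used here are the counting program, the annotation release and whether counting used strand. The 2 group mean columns of each table were not used, and 56 rows without a gene identifier stayed in the fits under their symbols. The authors' deposited table of log2 fold changes and p-values for these libraries listed 16 autosomal genes at an adjusted p under 0.05, and all 16 were called here.

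Counts were tested in R 4.3.3 with edgeR 4.0.16 (filterByExpr with minimum count 10 and minimum total 15, TMM, glmQLFit, glmQLFTest), with Benjamini-Hochberg adjustment over all 13413 rows and a threshold of 0.05, and autosomal rows are reported. Log2 CPM used a prior count of 2. DESeq2 1.42.0, limma 3.58.1 voom, other scaling factors and filters, covariates, a block, all 18 libraries in 1 fit and leaving out each library were tried as alternatives, and the code was tested on simulated data. No library columns were identical. The labels pair no animals. Deviations from the genotype mean correlated at 0.118, 0.211, 0.100 and 0.322 in the 4 pairs of nearest animal number (B171 with B173, B194 with B196, B212 with B213, B214 with B217), so results whose call a block for these pairs ended have its value beside them. Gene positions are those of the deposited rows.

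The genes and lists described were chosen with earlier results of these data known. Named genes were Smchd1, all called autosomal genes, up to 8 genes called only without B194, up to 3 genes of smallest p in each list, the Snrpn cluster, up to 5 genes where B194 was highest or lowest, 6 genes singled out earlier in the second table, and the 5 uncalled genes of smallest p. The developing brain and embryonic globin lists were added after the data were seen.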

Additional observations from a re-analysis of the deposited data

Results flagged for a closer look

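In groups of 4 libraries, a highest or lowest value was set apart from the others when its gap to the nearest one took more of the group's range than Dixon's 95% critical value allows. Chance sets apart about 1 in 20 groups, and 130 groups were examined. That rate does not hold for genes named because B194 was extreme or because leaving it out changed their call. For such genes a value of B194 set apart partly restates how they were chosen. Among the heterozygous libraries B194 was the highest, set apart from the other 3, for Peg3 (4.85 CPM), Ndn (11.4 CPM), Robo1 (3.91 CPM), Cdh4 (0.989 CPM), Fzd10 (1.43 CPM), Gnai1 (1.14 CPM), Mllt4 (8.16 CPM) and Tubb2b (46.5 CPM), a tubulin of neurons. Among the del/del libraries, B212 was set apart as the highest for Mllt4 (13.7 CPM) and for Thbs1, which encodes thrombospondin 1 (16.2 CPM). B217 was set apart as the highest for Zbtb20, a zinc finger repressor (93.3 CPM). B196 had the lowest mean of the age-associated B cell genes (4.11 log2 CPM). No reason for these values was tested.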

How the results depend on the processing

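The counts of autosomal calls with 8 libraries, 16 in all, 15 higher and 1 lower, were within 1.5 times under limma voom with and without library weights, other scaling factors, a filter on any count, robust dispersion, all 18 libraries in 1 fit, and the covariates of mitosis and replication genes and of developing brain genes. Leaving out 1 library gave 5 to 22 calls (6 without B171, 10 without B217), 5 to 21 higher and 0 to 1 lower. DESeq2 gave 49, 45 and 4. The plasmacytoid dendritic cell covariate gave 5, 5 and 0, as did the fit without B194, B196 and B212, which was chosen after seeing the data, as was the developing brain covariate. The replicate block of nearest animal numbers gave 13 calls, of which 9 were among the 16, and it ended the calls of Mkrn3, Tjp1, Xkr6, Cacna1h, Trim40, Dmrt2 and 5730507C01Rik. It ended no other call, and it added Gm12824, Tmem51, Wscd2 and Ly6a. The 22 calls without B194 became 51 with DESeq2 and 7 to 23 when a further library was left out (11 without B196, 12 without B212). The interaction had 0 calls with edgeR and 2 with DESeq2. Among genes whose log2 fold change is given in the sections above, Ndn was the one that reversed: from -0.35 on the log2 scale to 3.30 without B194, 3.21 without B194, B196 and B212, 1.61 with voom, 2.07 with library weights, 1.27 with the replicate block, 0.90 with the mitosis and replication covariate and 1.75 with the developing brain covariate. Mtap2, Thbs1, Slc25a40, Zbtb20, Malat1 and Neat1, none of them called, also changed sign without B194, from -0.43, -0.27, 0.11, 0.04, 0.07 and 0.19 to 0.19, 0.62, -0.06, -0.15, -0.16 and -0.04. The cause of these changes was not tested. Heterozygous libraries had 9788112 to 19958091 counts, and the effect of depth on the calls was not tested.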

Other observations

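Lists not described above held no call by edgeR or DESeq2. Their median log2 fold changes were -0.03 for plasma cell genes, 0.18 for age-associated B cell genes, 0.12 for germinal centre and activation genes, 0.03 for interferon-stimulated genes, 0.05 for p53 target genes, -0.02 for CDK inhibitor genes, -0.08 for replication-dependent histone genes, -0.15 for stem and progenitor genes and -0.03 for stroma and megakaryocyte genes. Without B194 they were -0.07, 0.10, 0.16, -0.06, 0.01, 0.01, -0.12, 0.02 and 0.21 in the same order, so that the sign turned for the interferon, CDK inhibitor, stem and progenitor, and stroma lists. With 8 libraries 0 to 4 members of each list had an unadjusted p under 0.05. Interferon-stimulated genes varied between libraries of 1 genotype, from 4.14 log2 CPM in B214 to 5.29 in B173 among the heterozygous and from 4.39 to 5.13 among the del/del libraries. In the stem and progenitor list Ly6a, which encodes the surface antigen Sca-1 and is induced by interferon, was at 103, 88.2, 87.4 and 125 CPM in heterozygous B173, B194, B213 and B214 and at 140, 140, 130 and 194.2 in del/del B171, B196, B212 and B217. The genotypes did not overlap, but the gene was not called (log2 fold change 0.58, edgeR adjusted p = 0.631). With a replicate block of nearest animal numbers it was called (log2 fold change 0.58, SE 0.06, edgeR adjusted p = 0.0311). Flt3, a receptor of lymphoid progenitors and dendritic cells, was at 18 to 25.3 CPM in heterozygous and 24.4 to 31.7 in del/del (log2 fold change 0.48, edgeR adjusted p = 0.827). The nuclear RNA Malat1 was lowest in B194, at 374 CPM against 627 to 1049 in the other 7 libraries.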
